A study of Rattus norvegicus with 12 samples.

Results

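The genes of the mitochondrial respiratory chain and of ATP synthase were examined in whole hippocampus from rats of 2 selectively bred lines. They are the 76 of 9962 measured genes whose RefSeq rat symbol begins with Nduf, Sdha to Sdhd, Uqc, Atp5, or Cox followed by a digit from 4 to 8. By role they were 28 subunits of complex I, 4 of complex II, 7 of complex III, 11 of complex IV and 10 of complex V. There were also 12 assembly factors and 4 other genes that carry such names, among them Cox6c-ps1, named as a pseudogene. RefSeq lists 130 rat genes that match the rule and are not named as pseudogenes, of which 75 were measured. Ndufa4, named for complex I, was counted with complex IV, to which its protein is now assigned.

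Bred High Responder (bHR) rats come from a line selected for high locomotor activity in an unfamiliar setting, and bred Low Responder (bLR) rats from one selected for low activity. All were adult males of generation 4 of the selection, aged 102 to 107 days per their sample labels. The labels name no drug or genetic change, and each of the 12 arrays held 1 rat. The submitters marked bHR replicate 1 and bLR replicate 5 as having failed quality control, and the comparisons rest on the other 5 arrays per line. Levels are on the log2 scale, so that a difference of 1 is a 2-fold difference. Levels of different genes were compared only to mark the 25% of genes with the lowest mean signal.

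The inner mitochondrial membrane holds a chain of complexes that pass electrons from NADH and succinate to oxygen. Complex I takes electrons from NADH, complex II (succinate dehydrogenase) takes them from the citric acid cycle, complex III hands them to cytochrome c, and complex IV (cytochrome c oxidase) reduces oxygen. Complexes I, III and IV pump protons as they do so, and complex V, the ATP synthase, uses the returning protons to make ATP. Neurons draw most of their ATP from this route, chiefly to restore ion gradients after synaptic activity. The genes here are encoded in the nucleus; the subunits encoded in mitochondrial DNA are outside the naming rule and were not analysed here.

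None of the 9 measured neuronal markers lay among the 25% of genes with the lowest signal. Snap25, a protein of synaptic release, averaged 11.68 ± 0.074 in bHR, against 11.70 ± 0.055 in bLR (SD, n = 5 each). Of the 9, 1 averaged higher in bHR and 8 lower, and 0 passed the test. Their differences, bHR minus bLR, ran from -0.20 for Prox1 to 0.074 for Camk2a, with a median of -0.016. The 5' signal of control transcripts differed between arrays inside both lines. The 5' minus 3' log2 value of the beta-actin control, which falls as signal is lost from the 5' end of transcripts, lay between -2.30 and -1.39 on the bHR arrays and between -3.65 and -1.36 on the bLR arrays, with the deepest loss on bLR replicates 3 and 2. The same value of dap, a spiked bacterial RNA, was also lowest on bLR replicates 3 and 2 and bHR replicate 6, at -1.82, -1.54 and -1.36, with the other passing arrays between -0.42 and -0.07. Whether the loss arose in the tissue RNA or in the labelling was not tested. All 8 measured markers of choroid plexus, which borders the hippocampus, averaged higher in bHR and 0 passed the test. Their summed linear signal ran from 472 to 2739 in bHR and from 374 to 1644 in bLR; their part in the results was not tested. In whole tissue, fewer cells of a type and less RNA per cell cannot be told apart.

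The comparison of bHR with bLR asked whether the genes of oxidative phosphorylation differ in level between the lines. None of the 76 did at a limma adjusted p under 0.05 (0% of all 9962 genes), and the smallest adjusted p among them was 0.992. The mean was higher in bHR for 37 and lower for 39, a share of 48.7% higher against 50.4% of all genes. The median difference, bHR minus bLR, was -0.0052, against 0.00078 over all genes; with quantile normalization repeated on these arrays the members' median was 0.013.

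The intervals give a range for each gene's difference, taken singly and not adjusted for the number of genes. For 73 of the 76 (96.1%) the 95% confidence interval lay inside ±0.5, a 1.41-fold difference, as it did for 97.1% of all genes. For all 76 it lay inside a 2-fold difference in either direction. The 3 genes with wider intervals were Sdha (-0.090 to 0.57), Ndufb8 (-0.23 to 0.54) and Atp5mk (-0.52 to 0.18). These counts hold for the passing arrays: with the failed arrays included, 21 of the 76 intervals lay inside ±0.5 and 48 inside a 2-fold difference. Of 37 genes named by rule, 33 moved by more than 1.5 times or changed sign when some 1 array was left out, 19 of them without bLR replicate 3. Many of these differences were small beside their SE, where such a ratio moves easily, and other genes were not counted. Some were named for their beta-actin slope, on which bLR replicate 3 was the extreme array. Moves of more than 1 within-line SD came only in fits that added the failed arrays or left out more than 1 array.

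At an unadjusted limma p under 0.05, 3 of the 76 (3.95%) were set apart, where 2.94% of all genes were. Of the 76, 0 were higher in bHR (1.1% of all genes) and 3 were lower (1.84% of all genes). The 3 were Uqcc2, Uqcr11 and Uqcrq, which belong to complex III or its assembly. Uqcrfs1, Uqcrc2, Uqcc1 and Uqcc4, of the same complex or its assembly, averaged higher in bHR. Whether the 3 have a common cause was not tested. Without bLR replicate 1 the count of lower genes was 8 (10.5%, against 3.37% of all genes). It was 5 without bLR replicate 3 (6.58%, against 1.12% of all genes) and 5 without bHR replicate 6 (6.58%, against 3.49%). The lowest count was 2 (2.63%), without bHR replicate 2, bLR replicate 2 or bHR replicate 4. Of all genes, 1.61%, 0.924% and 1.16% were then lower.

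**Figure D1:**
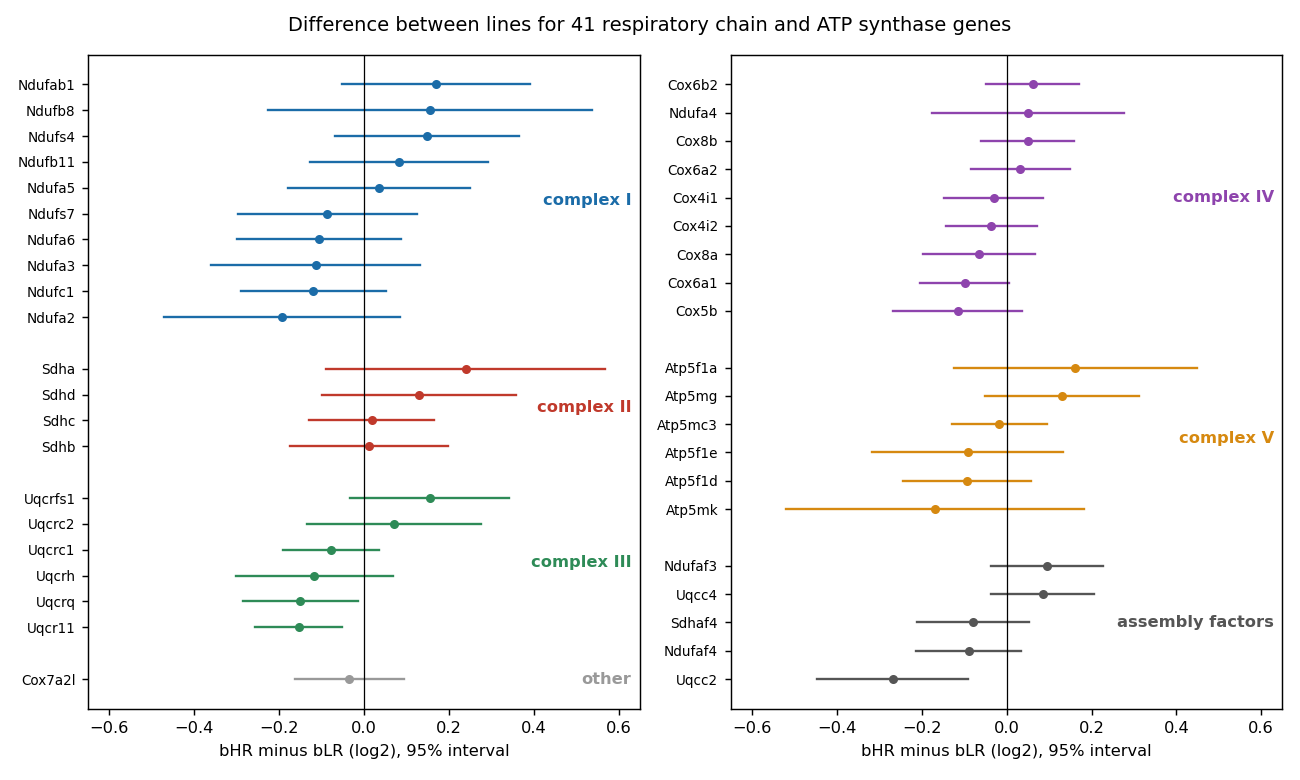
Difference between lines (points, bHR minus bLR, log2) for 41 of the 76 genes, those named by rule, with a called beta-actin slope or with an interval past ±0.5, with its 95% confidence interval from limma (lines), 5 arrays per line, grouped by role. The intervals of Uqcc2, Uqcr11 and Uqcrq leave out 0 before adjustment for the number of genes tested, and those of the other 38 drawn include it.

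Complex III passes electrons from ubiquinol to cytochrome c. Its 7 measured subunits with a Uqc symbol divided into 2 that averaged higher in bHR and 5 that averaged lower, and 0 passed the test. The median difference was -0.11, and it ran from -0.16 to -0.066 with each array left out in turn. Uqcr11, a small accessory subunit, had 10.31, 10.45, 10.29, 10.31 and 10.37 on the bHR arrays, against 10.39, 10.54, 10.57, 10.52 and 10.47 on the bLR arrays. Among the bHR arrays replicate 3 alone reached into the bLR range. Its difference was -0.15 (SE 0.047), with a limma adjusted p of 0.992. It stayed between -0.18 and -0.14 as each array was left out in turn.

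Uqcrq, which lies near cytochrome b in the complex, had 9.43, 9.47, 9.33, 9.48 and 9.54 in bHR, against 9.53, 9.69, 9.71, 9.65 and 9.43 in bLR. Here bLR replicate 6 lay among the bHR arrays, and bHR replicate 6 was just above bLR replicate 1. The difference was -0.15 (SE 0.062), with a limma adjusted p of 0.992. Uqcr10 differed by -0.11 and Uqcrh, the hinge protein that touches cytochrome c1, by -0.12. Uqcrc1, a core subunit, differed by -0.078. The subunits that averaged higher in bHR were Uqcrfs1, the Rieske iron-sulphur protein, at 0.16 (SE 0.086), and the core subunit Uqcrc2 at 0.070. Cyc1, the cytochrome c1 of the complex, whose symbol lies outside the naming rule, differed by 0.043 (SE 0.062) and is in none of these counts.

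Set against each gene's mean over the 10 arrays, the median of the complex III subunits was -0.076, -0.053, -0.080, -0.018 and 0.012 on the bHR arrays and -0.028, 0.12, 0.14, 0.10 and 0.052 on the bLR arrays. Of the bLR arrays replicate 1 alone lay among the bHR values. The top values fell on bLR replicates 3 and 2, which also had the deepest beta-actin loss. Once the beta-actin value entered the fit, the median difference of the complex was -0.060, and without bLR replicate 3 it was -0.066.

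**Figure D2:**
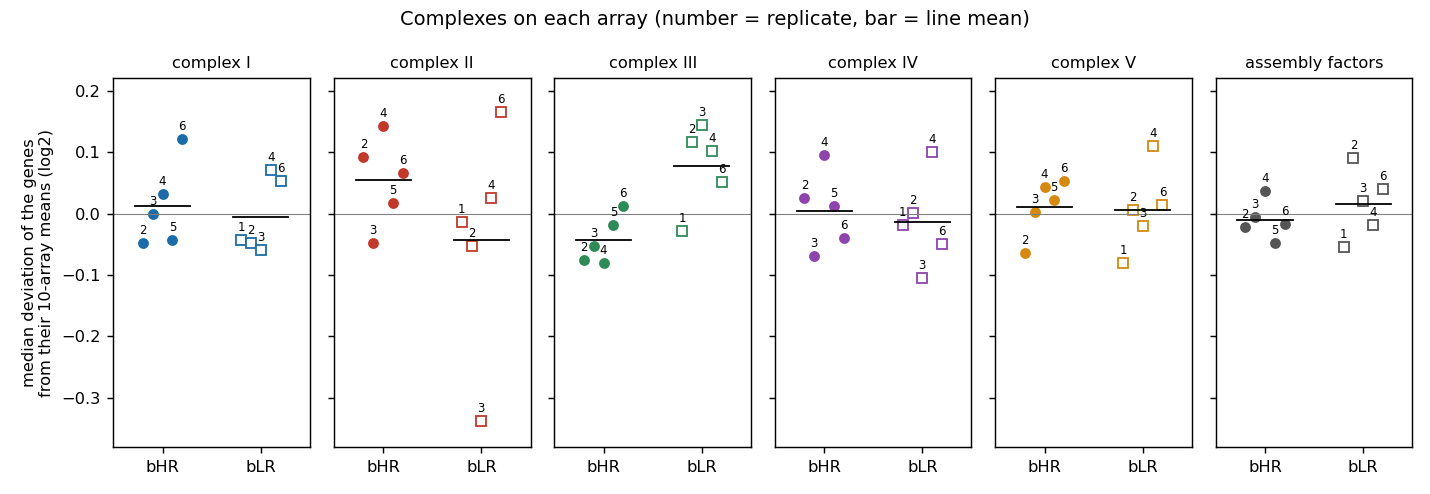
Median deviation of the genes of each role group from their 10-array means (y axis, log2) on each passing array, bHR left and bLR right; numbers are replicates and bars the line means. In complex III bLR replicate 1 is the one bLR array among the bHR values, and in complex II bLR replicate 3 lies lowest at -0.34.

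The assembly factors hold the 1 gene of the 76 whose lines did not overlap (0.291% of all genes had no overlap). Uqcc2 acts in the making of cytochrome b, the mitochondrially encoded core of complex III. It had 6.88, 6.94, 6.73, 7.03 and 6.87 on the bHR arrays, against 7.06, 7.46, 7.05, 7.12 and 7.11 on the bLR arrays. The highest bHR array, replicate 5, lay just below the lowest bLR array, and bLR replicate 2 stood above all others. The difference was -0.27 (SE 0.081), with a limma adjusted p of 0.992. It was -0.19 without bLR replicate 2. Its slope on the beta-actin value, in log2 units per unit of that value, was -0.050 (limma adjusted p = 0.659).

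Its partner Uqcc1 lay on the other side, at 0.065, as did Uqcc4 at 0.085. Among the 12 assembly factors 4 averaged higher in bHR and 8 lower, 0 passed the test, and the median was -0.019. Ndufaf3 and Ndufaf4, which act in the early assembly of complex I, differed by 0.095 and -0.089.

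The promoter window of Uqcc2 is shown because it is the gene whose lines were apart. It is given 5′ to 3′ from RefSeq on build GRCr8, from 250 bases before to 50 after the annotated start. In all windows printed here, capitals mark matches to any of the 3 motif strings GCGCATGC (NRF-1), CCGGAAG (ETS factors) and AAGATGGCG (YY1), on either strand; that of Uqcc2 holds none.
Uqcc2 (chr20:5216334-5216633, minus strand): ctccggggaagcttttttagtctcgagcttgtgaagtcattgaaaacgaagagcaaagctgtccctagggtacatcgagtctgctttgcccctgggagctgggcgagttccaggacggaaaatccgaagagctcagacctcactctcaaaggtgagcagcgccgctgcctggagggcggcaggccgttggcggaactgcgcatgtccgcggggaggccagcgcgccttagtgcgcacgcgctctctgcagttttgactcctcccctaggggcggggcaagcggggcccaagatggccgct

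**Figure D3:**
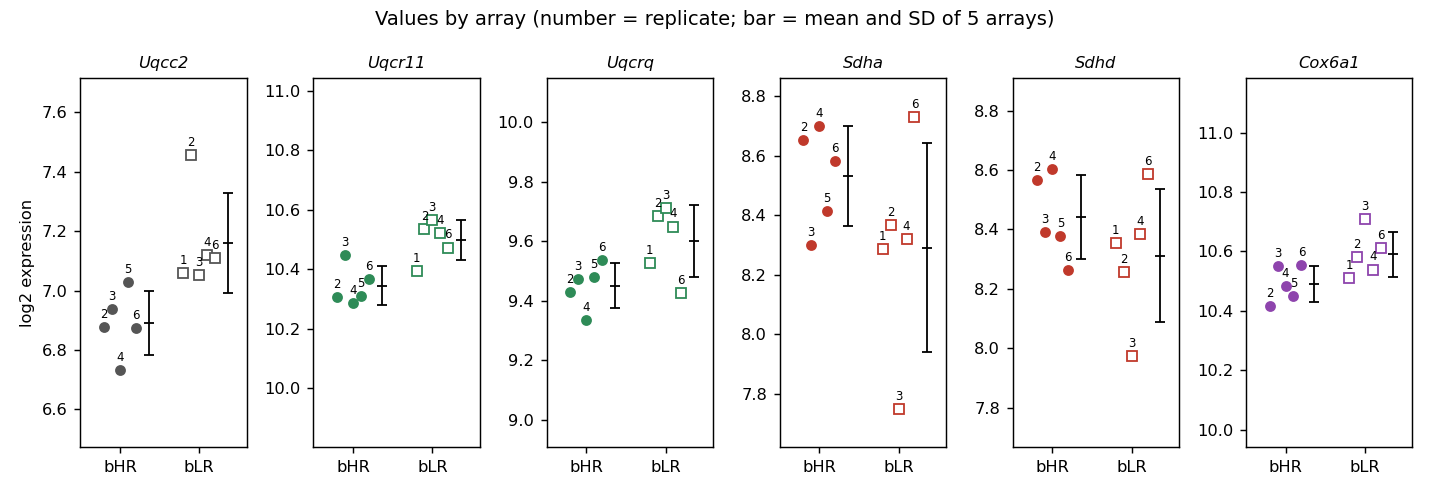
Log2 level of 6 genes on each passing array, bHR left and bLR right, with replicate numbers and the mean ± SD of 5 arrays. Uqcc2 has no overlap between the lines, and bLR replicate 3 lies lowest for Sdha and Sdhd.

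Complex II is encoded wholly in the nucleus and joins the citric acid cycle to the chain. All 4 subunits averaged higher in bHR, 0 passed the test, and the median was 0.073. Sdha, the flavoprotein that oxidises succinate, had 8.66, 8.30, 8.70, 8.42 and 8.58 in bHR, against 8.29, 8.37, 7.75, 8.32 and 8.73 in bLR. The lines overlapped, with bLR replicate 3 far below the rest and bLR replicate 6 the highest of all. The difference was 0.24 (SE 0.15), with a limma adjusted p of 0.992, and without bLR replicate 3 it was 0.10.

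Sdhd, a membrane anchor, had 8.57, 8.39, 8.60, 8.38 and 8.27 in bHR, against 8.35, 8.26, 7.97, 8.38 and 8.59 in bLR. Again bLR replicate 3 was lowest, and bLR replicate 6 was level with the highest bHR arrays. Its difference was 0.13 (SE 0.10), and 0.044 without bLR replicate 3. Sdhb, the iron-sulphur subunit, differed by 0.012 and Sdhc, the other anchor, by 0.018; without bLR replicate 3 both averaged lower in bHR, at -0.042 and -0.048. The median of the complex was then 0.00098.

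Over residuals from the line means of the 10 arrays, the median Pearson r of the 6 pairs of complex II genes was 0.62, against 0.023 over all pairs of the 9962 genes. This rested on bLR replicate 3, without which it was 0.055. The promoter windows of the complex are given because all its genes were measured; only Sdhb and Sdhd hold a motif string.
Sdha (chr1:30764303-30764602, plus strand): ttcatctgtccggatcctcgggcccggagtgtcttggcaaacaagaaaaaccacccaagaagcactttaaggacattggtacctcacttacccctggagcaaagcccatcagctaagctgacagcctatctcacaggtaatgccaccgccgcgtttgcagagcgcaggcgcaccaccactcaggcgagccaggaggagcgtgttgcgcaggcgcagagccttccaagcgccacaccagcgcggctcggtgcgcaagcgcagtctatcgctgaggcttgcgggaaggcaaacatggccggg
Sdhb (chr5:158547684-158547983, plus strand): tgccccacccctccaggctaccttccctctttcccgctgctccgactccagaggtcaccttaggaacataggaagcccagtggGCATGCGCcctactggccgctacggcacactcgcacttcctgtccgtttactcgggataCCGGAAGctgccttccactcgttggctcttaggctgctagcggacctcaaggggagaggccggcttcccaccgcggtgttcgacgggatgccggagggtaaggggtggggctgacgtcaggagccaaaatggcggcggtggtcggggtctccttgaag
Sdhc (chr13:86097976-86098275, minus strand): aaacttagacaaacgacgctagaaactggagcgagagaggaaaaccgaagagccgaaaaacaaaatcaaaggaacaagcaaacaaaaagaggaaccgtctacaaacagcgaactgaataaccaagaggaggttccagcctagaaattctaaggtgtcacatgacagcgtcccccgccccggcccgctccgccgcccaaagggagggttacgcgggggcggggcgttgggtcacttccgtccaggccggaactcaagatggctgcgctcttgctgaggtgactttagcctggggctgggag
Sdhd (chr8:59850592-59850891, minus strand): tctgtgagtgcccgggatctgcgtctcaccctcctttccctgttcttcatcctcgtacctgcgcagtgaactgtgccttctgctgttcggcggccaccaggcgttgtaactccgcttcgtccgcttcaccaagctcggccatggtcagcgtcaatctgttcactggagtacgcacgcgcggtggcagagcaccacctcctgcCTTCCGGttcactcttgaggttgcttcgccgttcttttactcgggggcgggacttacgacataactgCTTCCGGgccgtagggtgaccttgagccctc

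Complex I, the NADH dehydrogenase, had the most genes on the array. Of its 28 subunits 17 averaged higher in bHR and 11 lower, 0 passed the test, and the median was 0.013 (-0.0091 without bLR replicate 3). Ndufab1, which doubles as the mitochondrial acyl carrier protein, had 8.45, 8.32, 8.33, 8.36 and 8.47 in bHR, against 8.38, 8.08, 7.84, 8.38 and 8.39 in bLR. The bHR arrays lay close together, and bLR replicates 3 and 2 were low. The difference was 0.17 (SE 0.10), with a limma adjusted p of 0.992, and 0.078 without bLR replicate 3.

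Ndufs4, an accessory subunit whose loss in mice causes a fatal encephalopathy, had 9.15, 9.13, 9.20, 9.18 and 9.25 in bHR, against 9.12, 8.73, 9.31, 8.83 and 9.19 in bLR. All bHR arrays lay inside the bLR range, and the difference was 0.15 (SE 0.099), and 0.072 without bLR replicate 2. Ndufa2, an accessory subunit, had 6.88, 7.02, 6.94, 6.76 and 7.17 in bHR, against 6.70, 7.48, 7.28, 7.08 and 7.20 in bLR. The lines overlapped, and the difference of -0.19 (SE 0.13) moved between -0.30 without bLR replicate 1 and -0.11 without bLR replicate 2. Ndufc1, another accessory subunit, differed by -0.12 (SE 0.078). Among the subunits that carry the flavin and iron-sulphur centres, the differences were 0.026 for Ndufv1, 0.10 for Ndufv2, 0.11 for Ndufs1, -0.086 for Ndufs7 and -0.069 for Ndufs8.

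Complex IV is the last of the chain, where oxygen is reduced to water. Its 11 subunits ran from -0.12 for Cox5b to 0.061 for Cox6b2, with 4 that averaged higher in bHR, 7 lower and 0 past the test. The median was -0.012, and 0.017 with quantile normalization repeated. Cox6a1, the form of subunit VIa found in most tissues, had 10.42, 10.55, 10.48, 10.45 and 10.55 in bHR, against 10.51, 10.58, 10.71, 10.54 and 10.61 in bLR. The bLR arrays lay higher with overlap, and the difference was -0.099 (SE 0.047). Cox5b, a zinc-binding subunit, had 10.95, 11.04, 10.78, 10.92 and 11.02 in bHR, against 10.99, 11.23, 11.16, 10.98 and 10.93 in bLR, a difference of -0.12 (SE 0.069), and -0.074 without bLR replicate 2. Cox8a differed by -0.065 (-0.035 without bLR replicate 2) and Ndufa4 by 0.049.

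Several subunits of complex IV exist as tissue isoforms. Cox4i2 (lung), Cox6a2 and Cox8b (heart and skeletal muscle) and Cox6b2 (testis) all lay among the 25% of genes with the lowest signal. They differed by -0.036, 0.032, 0.049 and 0.061. Cox4i1, the common form of subunit IV, had a mean of 10.89 ± 0.070 for bHR and 10.92 ± 0.094 for bLR (SD, n = 5 each). Cox7a2l, which links complexes III and IV into supercomplexes, differed by -0.035.

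Complex V makes ATP by rotation: protons turn a membrane ring and a central stalk inside a catalytic head. Of its 10 subunits 5 averaged higher in bHR and 5 lower, 0 passed the test, and the median was -0.0034 (0.0083 with quantile normalization repeated). In the catalytic head Atp5f1a, the alpha subunit, differed by 0.16 (SE 0.13) (0.045 without bLR replicate 3), and Atp5f1b, the beta subunit, by 0.050. In the central stalk Atp5f1c differed by -0.044, Atp5f1d by -0.092 (-0.046 without bHR replicate 6) and Atp5f1e by -0.092 (-0.0050 without bLR replicate 3). In the membrane part Atp5mg differed by 0.13 (SE 0.083), Atp5mk by -0.17 (SE 0.16) and Atp5mc3, which encodes the ring subunit, by -0.017. Without bLR replicate 3 Atp5mg differed by 0.055 and Atp5mk by -0.046. Atp5if1, the inhibitor that keeps the enzyme from running backwards, differed by -0.097.

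With line in the model, 13 of the 76 (17.1%) had a slope on the beta-actin value at a limma adjusted p under 0.05, against 13.3% of all genes. For 7 the slope was positive, meaning lower values on arrays with deeper 5' loss (9.21%, against 5.28% of all genes). For 6 it was negative (7.89%, against 7.98% of all genes). Slopes past the threshold ran in both directions inside complexes I and V, while all 4 slopes of complex II were positive. Without bLR replicate 3, 5 of the 76 were called (6.58%, against 7.16% of all genes), 4 of them among the 13. Without bLR replicates 2 and 3 together 0 were, when 2.26% of all genes were called.

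Atp5f1a had the smallest p, with a slope of 0.29 (SE 0.040; limma adjusted p = 0.000827). Its levels were 10.10, 10.03, 10.18, 10.04 and 10.01 in bHR, against 10.04, 9.71, 9.44, 10.12 and 10.24 in bLR, and the low arrays were bLR replicates 3 and 2. Atp5f1e, of the same enzyme, ran the opposite way, at -0.23 (SE 0.035; limma adjusted p = 0.00178). It had 9.38, 9.43, 9.39, 9.37 and 9.46 in bHR, against 9.32, 9.67, 9.84, 9.44 and 9.22 in bLR, and bLR replicates 3 and 2 were its high arrays. Atp5mk also had a negative slope, -0.29 (limma adjusted p = 0.0354).

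In complex I, Ndufb11 (0.20), Ndufab1 (0.20), Ndufa5 (0.19), Ndufb8 (0.32) and Ndufs7 (0.17) had positive slopes past the threshold, and Ndufa6 (-0.19) and Ndufa3 (-0.23) negative ones. In complex II, Sdhd passed at 0.21 (SE 0.045; limma adjusted p = 0.0102), and Sdha, Sdhb and Sdhc had slopes of 0.24, 0.12 and 0.090 that did not. Cox5b (-0.13) and Sdhaf4 (-0.12), an assembly factor of complex II, passed with negative slopes. No gene of complex III passed: the slopes were 0.15 for Uqcrc2, 0.14 for Uqcrfs1, -0.13 for Uqcrh and -0.10 for Uqcrq.

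Markers of cell types had slopes on the same value. Of 6 astrocyte markers 4 had a positive slope past the threshold, and of 9 neuronal markers 2 passed in each direction. Of 7 oligodendrocyte markers 2 and of 4 endothelial markers 1 had a positive slope past it. Of 6 microglial and of 4 fast-spiking interneuron markers 1 passed in each direction, and of 8 choroid plexus markers 0 passed. Over all genes 5.28% passed with a positive slope and 7.98% with a negative one. Their part in the members' slopes was not tested.

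**Figure D4:**
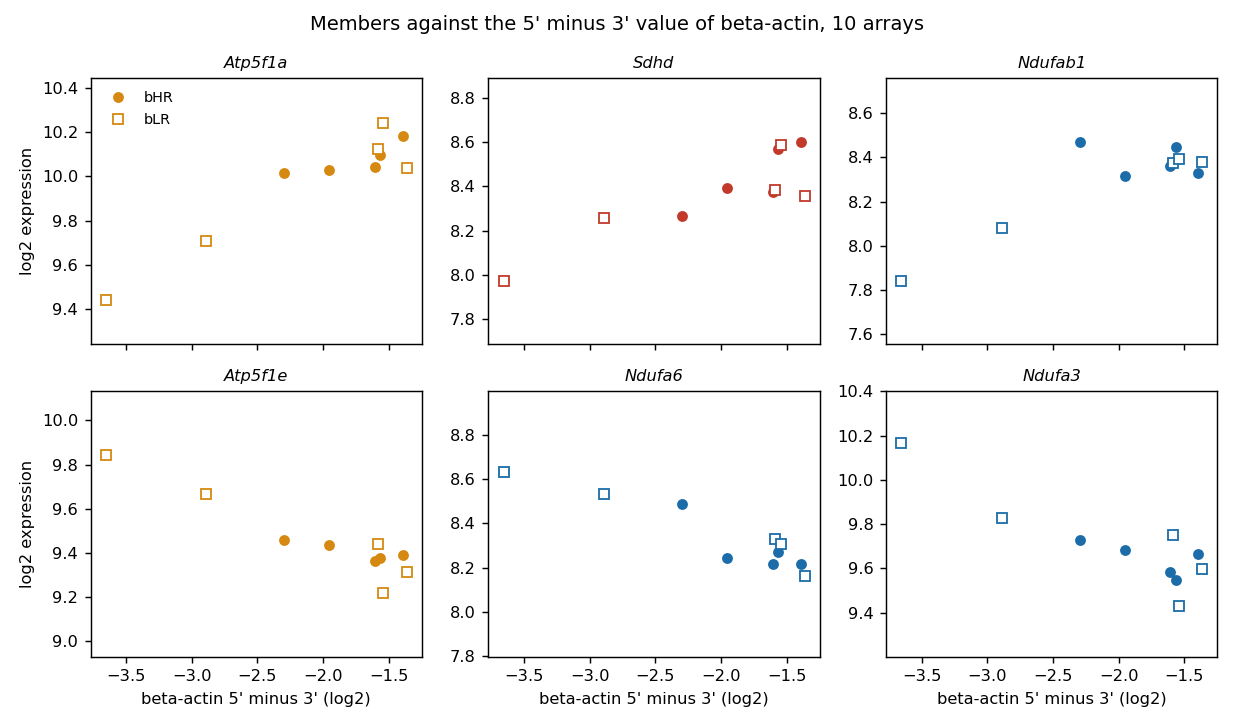
Log2 level (y axis) of 6 genes with a slope past the threshold against the 5' minus 3' log2 value of beta-actin (x axis; lower means deeper 5' loss) on the 10 passing arrays, bHR as filled circles and bLR as open squares. Atp5f1a, Sdhd and Ndufab1 are lowest, and Atp5f1e, Ndufa6 and Ndufa3 highest, on bLR replicate 3, at -3.65.

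Atp5f1a and Atp5f1e, subunits of 1 enzyme with slopes in opposite directions, have their promoter windows set side by side.
Atp5f1a (chr18:73567287-73567586, plus strand): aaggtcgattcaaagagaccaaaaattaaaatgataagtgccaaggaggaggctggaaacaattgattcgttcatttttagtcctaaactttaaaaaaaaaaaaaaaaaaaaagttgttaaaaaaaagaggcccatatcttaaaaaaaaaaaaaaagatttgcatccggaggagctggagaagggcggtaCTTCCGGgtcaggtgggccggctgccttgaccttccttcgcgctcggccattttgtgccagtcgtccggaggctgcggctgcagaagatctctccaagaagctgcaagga
Atp5f1e (chr3:183680123-183680422, minus strand): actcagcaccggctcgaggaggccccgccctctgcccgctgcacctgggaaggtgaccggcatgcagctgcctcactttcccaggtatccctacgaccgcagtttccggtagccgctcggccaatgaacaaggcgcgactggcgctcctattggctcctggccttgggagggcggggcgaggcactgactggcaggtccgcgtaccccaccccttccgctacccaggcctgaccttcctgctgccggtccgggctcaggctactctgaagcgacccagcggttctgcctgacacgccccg

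Promoters of respiratory chain genes are known for binding NRF-1, ETS factors such as GABP, and YY1. The short core strings named above were searched on both strands of the 68 windows found for the 76 genes. At least 1 string was in 31 of the 68 (45.6%), against 21.4% of 8007 windows of genes measured on the arrays and 12.8% of all 27457. The NRF-1 string was in 9 (13.2%, against 4.5% of measured genes and 2.66% of all). The ETS string was in 22 (32.4%, against 15.5% and 9.22%), and the YY1 string in 8 (11.8%, against 3.45% and 1.93%).

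Of the windows with the YY1 string 6 belonged to complex I, and that of Ndufa6 held all 3 strings. The NRF-1 string can overlap its own reverse complement, so that 1 place can match on both strands. Atp5f1a has an ETS match and Atp5f1e none. A match describes the sequence and not binding.

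Correlations between members were low as a whole, with medians above that of all gene pairs. Over their 2850 pairs the median r of the residuals was 0.079, against 0.023 over all gene pairs. For pairs inside 1 of complexes I to V it was 0.14, and for pairs from different complexes 0.11. With the beta-actin value also removed, it was 0.12 over all member pairs, 0.24 inside complexes, 0.15 between them and 0.025 over all gene pairs. Complex IV had a median of 0.22, complex I of 0.12 and complex V of 0.11, and without bLR replicate 4 these were 0.12, 0.060 and 0.056. Complex III had a median of -0.026 (0.21 without bLR replicate 3). All pairs share the same 10 arrays, and these values carry no test.

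With each rat's locomotor score centred within its line, 0 of the 76 genes had a slope past a limma adjusted p of 0.05 (0% of all genes). At an unadjusted limma p under 0.05 there were 6, where 4.12% of all genes were. The smallest belonged to the low-signal isoform Cox4i2, at -0.070 log2 units per 100 beam breaks (limma adjusted p = 0.989), followed by the anchor Sdhc at 0.095.

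The genes that feed, build and regulate the chain held no called difference between the lines. Of 14 measured carriers and citric acid cycle genes 9 averaged higher in bHR and 5 lower, with a median of 0.021. The smallest p belonged to Vdac2, a channel of the outer membrane, at 0.13 (SE 0.054), and Fh, the fumarase that follows complex II in the cycle, at 0.19 (SE 0.082), both with a limma adjusted p of 0.992. On the beta-actin value 3 of the 14 had a positive slope past the threshold: 0.67 for Cs, the citrate synthase, 0.39 for Slc25a4, which exchanges ADP for ATP, and 0.15 for Slc25a3, the phosphate carrier.

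Among 7 measured assembly genes of cytochrome oxidase 1 averaged higher in bHR and 6 lower, with a median of -0.040. Cox17, a copper chaperone, differed by -0.15 (SE 0.10). Among 7 measured regulators the numbers were 4 and 3, with a median of 0.021. Esrra, a nuclear receptor that drives these genes, differed by -0.053 and Ppargc1a, its coactivator, by 0.032 at a signal among the lowest 25%. Gabpb1, a subunit of GABP, had a slope of -0.23 on the beta-actin value (limma adjusted p = 0.00638) and a line difference of -0.068.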

How the data were processed

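Each of the 12 rats was profiled on 1 Affymetrix array (Rat Expression Set 230 A). The deposited values are on a log2 scale and come from RMA as run by the authors (affy 1.54.0, per the submitters' processing notes), which adjusts background, equalises array distributions and summarises probes. Probes had been assigned to Entrez genes by a custom definition, 19.0.0, per the series' design text. Because distributions were equalised, differences are relative to other genes.

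All 12 columns had a sample. Control probe sets (57) were set aside, leaving 9962 genes, of which 9831 took a symbol from RefSeq (GRCr8) by Entrez number. No build is named for the values; coordinates are those of the RefSeq promoter table, with the first window listed per gene. Replicates are numbered in accession order. limma 3.58.1 (R 4.3.3; lmFit, eBayes, Benjamini-Hochberg over all genes) tested line alone, the beta-actin 5' minus 3' value with line, and locomotor score within line. The fits were tested on simulated data with independent noise for each gene. Noise shared between genes on an array was not simulated, so its effect on the fits was not tested. Arrays have no read depth; their number limits the precision. P-values measure the spread between single rats, whose relatedness is not given in the sources used here.

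Members, lists and tests were chosen with earlier results of these data known. Named with values were the 4 genes per complex and among assembly factors with the smallest p for line, up to 2 per complex in each direction for the beta-actin slope, genes without overlap, isoform sets, complex II and pathway genes; any other gene was picked after its values were known. Alternatives covered arrays, filter, normalization, prior, covariate, control transcript and pairing. Of these, the 6 arrays with shared title numbers fitted without the block, and the correlations between gene pairs with an array left out, were chosen after seeing the data.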

Additional observations from a re-analysis of the deposited data

Results flagged for a closer look

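In 4 of 86 groups of 5 arrays, 1 array stood apart from the other 4 by Dixon's criterion, where chance gives about 4.3. Uqcc2 was 7.46 on bLR replicate 2, the rest of its line spanning 7.05 to 7.12. Ndufa6 was 8.49 on bHR replicate 6, the rest of its line spanning 8.22 to 8.27. Atp5mc3 was 10.67 on bLR replicate 1, the rest of its line spanning 10.83 to 10.87. The low-signal isoform Cox6a2 was 4.49 on bLR replicate 3, the rest of its line spanning 4.64 to 4.69.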

How the results depend on the processing

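No member was called for line under any of 20 other settings, or for locomotor score with any array left out. With all 12 arrays the median difference was -0.12 for all members and -0.12 for complex I, -0.040 for II, -0.25 for III, -0.19 for IV and -0.20 for V. At an unadjusted limma p under 0.05, 0 members were then lower in bHR (0.171% of all genes). With weights on those arrays 1 was (1.32%, against 1.75% of all genes). Leaving out 1 array gave 0 to 2 higher genes at that p (0% to 2.63% of members, against 0.652% to 2.57% of all genes). It gave 2 to 8 lower genes (2.63% to 10.5% of members, against 0.924% to 3.49% of all genes). It moved the medians over -0.023 to 0.018 for all members, -0.0091 to 0.050 for complex I, 0.00098 to 0.12 for II, -0.16 to -0.066 for III, -0.034 to 0.019 for IV and -0.037 to 0.014 for V. Leaving out the arrays with the 3 lowest values of dap, a bacterial control for 5' loss, gave medians of -0.035 for complex I and -0.0055 for II. For the beta-actin slope, leaving out 1 array gave 3 to 7 negative calls (3 without bLR replicate 1) and 1 to 9 positive calls (1 without bLR replicate 3). Both directions together made 6.58% to 19.7% of members, against 7.16% to 13.1% of all genes. The dap value in place of the beta-actin value gave 4 positive calls, and repeated quantile normalization gave 12. In both directions together these fits called 14.5% of members against 14.2% of all genes, and 23.7% against 13.4%. All 12 arrays, and leaving out bLR replicates 2 and 3, gave 0 in each direction, where 0.151% and 2.26% of all genes were called. Of 736 values of 37 named genes under other settings, 33 moved by more than 1 within-line SD, 22 of them with all 12 arrays; 43 changed sign and 0 were called. The labels do not say what the title numbers shared by 3 arrays of each line mean. Deviations from the line means had r of -0.334, 0.263 and 0.409 between arrays with the same number. With 3 such pairs and no unmatched pairs beside them, these values cannot show whether the arrays are paired. As a replicate block on those 6 arrays the title numbers gave 7 higher and 13 lower genes at an unadjusted limma p under 0.05, with 0 called. These were 9.21% and 17.1% of members, against 6.26% and 8.47% of all genes. Without the block the same 6 arrays gave 4 and 13, 5.26% and 17.1% of members against 4.37% and 6.06% of all genes. The causes were not tested.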

Other observations

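On the 2 arrays that failed quality control the respiratory chain genes stood far below the passing arrays. Against the 10-array means, the median of the 76 genes was -1.80 on bHR replicate 1, where the median of all 9962 genes was 0.067. By complex it was -1.50 for I, -1.81 for II, -2.29 for III, -2.38 for IV and -2.40 for V, but -0.28 for the assembly factors. On bLR replicate 5 the complexes lay at -0.99, -1.11, -1.20, -1.09 and -1.19, the assembly factors at -0.33 and all genes at -0.024. Members did not shift alike: Ndufab1 had 8.36 on bHR replicate 1, inside the range of the passing bHR arrays. The low-signal isoforms Cox4i2, Cox6a2, Cox6b2 and Cox8b had 5.16, 5.23, 5.21 and 6.61 there, each above every passing array. The spread of all genes on the array was narrower, with an SD over genes of 0.84 on bHR replicate 1 and 1.02 on bLR replicate 5, against 1.34 to 1.41 on the passing arrays. The median of all genes covers every signal level, and genes of like signal outside the 76 were not compared. Whether the shift is particular to respiratory chain genes was not tested. The beta-actin 5' minus 3' values were -1.26 and -1.42, among the 4 least negative of the 12.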
